A study of Mus musculus with 6 samples.

Results

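The 36 genes described here act in G2 and M phase, the stretch of the cell cycle in which a cell prepares for and carries out division. They were taken by name, and each was read from 1 probe set, the one of highest mean over the 6 arrays among probe sets that name the gene alone. A probe set was found for 35 of the 36, out of 18193 genes with such a probe set; for Ccnb1, cyclin B1, none was used here. The transcripts were measured in whole hearts of C57B6 mice on Affymetrix Mouse430_2 arrays, 3 hearts from wild type mice and 3 from mice labelled EphB4 Mutant. Ephb4 encodes a receptor tyrosine kinase of blood vessel lining, and the series is titled for paracrine ephrin-B2 signalling in heart muscle and the forming ventricular wall. The sources used here name neither the mice's age nor the type of Ephb4 allele. The sample descriptions begin with the letters eI for hearts 1 and 2 of each genotype and with eM for heart 3 of each; their meaning is not given, and they are used here as labels alone. Every value is a log2 intensity, so a difference of 1 is a doubling, and levels of different genes cannot be set against each other because each probe set has its own brightness.

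Entry into mitosis is driven by the kinase CDK1 bound to cyclins A and B. Aurora and Polo-like kinases then build the spindle, the kinetochore ties each chromosome to it, and the spindle checkpoint holds back the anaphase-promoting complex until all chromosomes are attached. The complex destroys the B cyclins, and kinesins and ring proteins of the midzone finish the division. Heart muscle cells divide in the embryo and largely stop soon after birth, so these transcripts are a usual measure of growth in the forming heart. Their genes are switched on late in the cycle by MuvB complexes with B-Myb and FOXM1, which act through a promoter element called CHR, and by NF-Y, which binds CCAAT boxes.

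Promoter sequences show what these genes share beside their function. Of the 35 genes, 30 had a promoter in the RefSeq table of GRCm38.p6, read as 250 bases before to 50 after the first listed start of each gene. The CHR letters, TTTGAA or TTTAAA on either strand, were in 26 of 30 windows, or 86.7%, against 19.2% of the 10909 tested genes with a promoter and 27.8% of all 27025 genes of the table. The letters CCAAT on either strand were in 24 of 30, or 80.0%, against 38.2% and 37.9%. Both were present in 22 of 30, or 73.3%, against 7.55% and 10.9%. Mad2l1 and Nusap1 held neither in this window, which says only that these letters are not there. These are matches of letters, not measured binding.

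The 120 bases directly before the start are printed for 5 genes that passed the test between eM and eI hearts (Plk1, Kif23, Cenpe, Cenpf and Kif11) and for 3 that did not (Cdk1, Ccnb2 and Cdc20), so that both kinds can be compared. They are given 5′ to 3′ on the strand of the gene, with CHR and CCAAT letters, or their reverse complements TTCAAA and ATTGG, in capitals.
Plk1, chr7:122159315-122159434, plus strand: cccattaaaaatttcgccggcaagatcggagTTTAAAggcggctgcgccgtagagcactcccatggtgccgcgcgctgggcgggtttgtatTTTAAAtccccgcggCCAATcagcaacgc
Kif23, chr9:61946800-61946919, minus strand: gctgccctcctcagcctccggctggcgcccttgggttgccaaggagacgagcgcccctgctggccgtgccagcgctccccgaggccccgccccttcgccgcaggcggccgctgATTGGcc
Cenpe, chr3:135212443-135212562, plus strand: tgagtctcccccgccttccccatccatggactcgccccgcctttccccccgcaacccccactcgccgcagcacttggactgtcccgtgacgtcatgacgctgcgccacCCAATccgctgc
Cenpf, chr1:189688087-189688206, minus strand: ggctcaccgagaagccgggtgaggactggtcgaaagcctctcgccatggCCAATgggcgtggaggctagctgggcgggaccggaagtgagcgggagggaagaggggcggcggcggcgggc
Kif11, chr19:37376262-37376381, plus strand: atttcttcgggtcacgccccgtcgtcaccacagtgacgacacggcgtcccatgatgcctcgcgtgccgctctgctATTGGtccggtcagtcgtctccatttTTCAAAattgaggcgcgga
Cdk1, chr10:69352913-69353032, minus strand: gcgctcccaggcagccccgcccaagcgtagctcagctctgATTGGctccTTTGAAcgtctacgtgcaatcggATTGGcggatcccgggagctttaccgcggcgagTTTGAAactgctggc
Ccnb2, chr9:70421555-70421674, minus strand: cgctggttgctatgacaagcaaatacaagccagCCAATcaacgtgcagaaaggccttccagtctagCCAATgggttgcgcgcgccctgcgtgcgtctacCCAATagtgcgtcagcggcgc
Cdc20, chr4:118437344-118437463, minus strand: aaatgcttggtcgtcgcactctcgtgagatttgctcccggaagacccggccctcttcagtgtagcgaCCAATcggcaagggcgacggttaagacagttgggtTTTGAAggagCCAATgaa

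All 8 held CCAAT in this stretch, Ccnb2 at 3 places. The CHR match closest before the start began 29 bases before it in Plk1, 19 in Kif11, 18 in Cdc20 and 15 in Cdk1. In Kif23, Cenpe, Cenpf and Ccnb2 a match lay just past the start, 2 to 14 bases into the gene, outside the printed stretch. The 5 genes that passed the test all held both elements in the whole window, and so did Cdk1, Ccnb2 and Cdc20, so the letters do not separate these 8. Both elements were in 22 of the 30 members with a promoter. Those that lacked CHR, CCAAT or both were Nek2, Birc5, Bub1, Mad2l1, Ndc80, Kif2c, Nusap1 and Anln. None of them passed, where 10.3% of all genes did. Ccna2, Aurkb, Incenp, Tpx2 and Kif20a, which had no promoter in the table, did not pass either. These counts are too small to tie the letters to the calls, and such a link was not tested.

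The mean over 12 heart muscle markers lay between 13.23 and 13.47 on every array, which does not show that other tissue was absent. Liver and endoderm markers were uneven among the eI hearts, with means of 6.77 to 8.5. All 35 mitotic genes lay above the dimness limit of 5.38 that left 13572 genes to test, with means between 8.39 for Ndc80 and 12.93 for Ube2c. Medians of the arrays ran from 5.89 to 6.01. The arrays number 3 per genotype, and that number limits the precision. Per the series' design each heart came from its own mouse. Ephb4 itself read 8.03 ± 0.18 in wild-type and 8.04 ± 0.11 in mutant hearts (SD, n = 3 each), so its probe set did not tell the genotypes apart. Sex was not labelled. Xist, the RNA of the inactive X, was at 6.73 in mutant 1 and 6.78 in mutant 3 and at 11.51 or more elsewhere, and those 2 hearts had the Y-linked Eif2s3y at 9.56 and 9.58. Wild-type 1 held the lowest value of 19 of the 35 genes, more than any other heart, and mutant 3 the highest value of 32.

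Mitotic transcripts were higher in the eM hearts than in the eI hearts at 30 of 35 genes, with a median difference of 0.18 adjusted for genotype, while the median over all 13572 genes was -0.03 and 44.8% were higher. In limma, 5 of the 35 passed an adjusted p of 0.05, all higher in eM and by 1.43-fold to 1.61-fold, where 4.47% of all genes passed in that direction. None passed as lower, where 5.82% of all genes did. The 5 that passed were Plk1, Kif23, Cenpf, Cenpe and Kif11. At 18 genes, or 51.4%, both eM hearts lay above all 4 eI hearts, where 20.8% of all genes did so. At 1 gene, Cdk1, both lay below, where 23.8% of all genes did. In whole-heart RNA, more dividing cells and more transcript per cell cannot be told apart. The mean level of the 35 genes was 10.29 and 10.46 in wild-type 1 and 2 and 10.44 and 10.36 in mutant 1 and 2, against 10.49 in wild-type 3 and 10.75 in mutant 3. Mutant 3 stood clear of the others, and wild-type 3 lay only just above the highest eI heart.

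**Figure D1:**
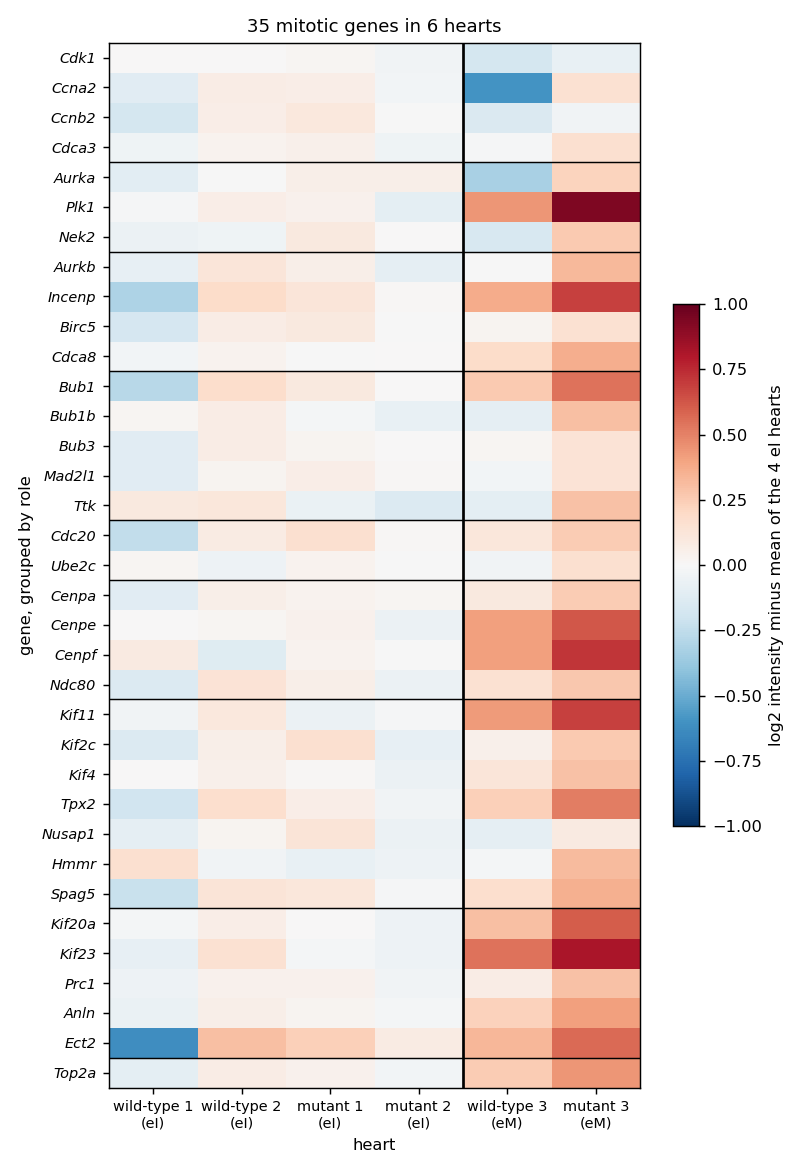
Each row is 1 of the 35 mitotic genes, grouped by role with black lines between groups, and each column 1 heart; the colour is the log2 intensity minus the mean of the 4 eI hearts. Mutant 3 held the highest value of 32 genes, wild-type 3 was high for Plk1, Kif23 and the kinetochore genes but low for Ccna2, and wild-type 1 was low at Ect2.

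The calls rest on few hearts. Without mutant 1, mutant 2 or mutant 3 none of the 35 genes passed in limma, with smallest adjusted p among them of 0.0889, 0.103 and 0.211. The calls among all genes then numbered 158, 2 and 0, against 1397 with all hearts. The median difference was 0.10 without mutant 3 and 0.32 without wild-type 3. Without wild-type 2, 10 of the 35 passed, where 12.3% of all genes did, against 10.3% with all hearts. Processing choices also moved single calls in limma. Plk1 lost its call with no filter on dim probe sets (adjusted p = 0.0502), Kif23 with the probe set of highest SD (0.62, adjusted p = 0.0628) and Kif11 with the mean of its probe sets (0.33, adjusted p = 0.0627). That mean also gave 0.33 for Cenpf and 1.09 for Cenpe, both still past the threshold. With the probe set of highest SD Cenpe was below the dimness limit and not tested.

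The 5 genes that were not higher in eM were Cdk1, Ccna2 and Ccnb2 of mitotic entry, Aurka and Nusap1. Cdk1, the kinase that starts mitosis, read 11.67 in wild-type 1 and 2, 11.68 in mutant 1 and 11.63 in mutant 2, against 11.49 in wild-type 3 and 11.59 in mutant 3. Both eM hearts lay below all eI hearts, but the difference of -0.13 ± 0.08 (SE) did not pass (limma, adjusted p = 0.337). Ccna2, cyclin A2, read 11.79 and 11.98 in wild-type 1 and 2, 11.97 and 11.88 in mutant 1 and 2, 11.31 in wild-type 3 and 12.06 in mutant 3. Its eM hearts thus held both the lowest and the highest value of the 6, and the difference of -0.22 did not pass (limma, adjusted p = 0.418). Ccnb2, cyclin B2, differed by -0.09, and Cdca3, which speeds mitotic entry by helping to remove the inhibitor WEE1, by 0.07. Cdk1 and Ccnb2 were the 2 genes lower in eM within each genotype.

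The mitotic kinases split. Plk1, the Polo-like kinase of centrosomes, kinetochores and midzone, was among the genes with the widest difference. It read 10.00 and 10.08 in wild-type 1 and 2 and 10.05 and 9.91 in mutant 1 and 2, but 10.45 in wild-type 3 and 10.94 in mutant 3. The difference was 0.68 ± 0.14 (SE) with a 95% confidence interval of 0.35 to 1.02 (limma, adjusted p = 0.0358). Aurka, the Aurora kinase of spindle poles, differed by -0.05 and Nek2, a kinase of centrosome separation, by 0.05, and for both the eM hearts lay on either side of the eI range, with wild-type 3 below it and mutant 3 above it.

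All 4 genes of the chromosomal passenger complex, which corrects faulty spindle attachments, were higher in eM, by 0.09 to 0.53, but none passed. Incenp, the scaffold of the complex, read 10.46, 10.95, 10.89 and 10.78 in the eI hearts, 11.14 in wild-type 3 and 11.45 in mutant 3. Both eM hearts lay above all eI hearts (0.53 ± 0.15 SE, limma, adjusted p = 0.0742). Cdca8, or borealin, did so as well at 0.27 (adjusted p = 0.0923), while Aurkb, the kinase of the complex, differed by 0.16 and Birc5, or survivin, by 0.09.

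Genes of the spindle checkpoint were higher in eM by 0.05 to 0.40, and none of the 5 passed. Bub1, a checkpoint kinase of the kinetochore, read 10.46, 10.91, 10.83 and 10.74 in the eI hearts, 11.00 in wild-type 3 and 11.28 in mutant 3 (0.40 ± 0.14 SE, limma, adjusted p = 0.116). The other 4 overlapped between the letters: Bub1b, or BubR1, differed by 0.11, Ttk, the kinase also called Mps1, by 0.09, Bub3 by 0.07 and Mad2l1, the inhibitor of CDC20, by 0.05. For Bub1b and Ttk wild-type 3 was below the mean of the wild-type eI hearts, by 0.14 and 0.20, and mutant 3 above its own by 0.35 and 0.39. The anaphase genes differed little: Cdc20, the activator of the anaphase-promoting complex, by 0.18 (adjusted p = 0.339) and Ube2c, its ubiquitin-conjugating enzyme, by 0.06.

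All 4 kinetochore and centromere genes had both eM hearts above all eI hearts, for Ndc80 by a narrow margin (8.47 in wild-type 3, 8.46 in wild-type 2). Cenpf, a large protein of the outer kinetochore, read 10.37, 10.16, 10.32 and 10.28 in the eI hearts, 10.69 in wild-type 3 and 11.00 in mutant 3 (0.56 ± 0.11 SE, limma, adjusted p = 0.0307). Cenpe, the kinetochore kinesin that brings chromosomes to the spindle equator, read 9.12, 9.14, 9.16 and 9.06 against 9.53 and 9.74 (0.52 ± 0.09 SE, adjusted p = 0.0277). The spread of Cenpe among the eI hearts was small, with an SD of 0.04. Ndc80, the microtubule coupler, differed by 0.21 and Cenpa, the histone variant that marks centromeres, by 0.17, neither past the threshold.

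Among 7 spindle genes 1 passed. Kif11, the kinesin that pushes the spindle poles apart, read 8.72, 8.86, 8.70 and 8.74 in the eI hearts, 9.18 in wild-type 3 and 9.44 in mutant 3 (0.55 ± 0.10 SE, limma, adjusted p = 0.031). Tpx2, the activator of Aurora A, differed by 0.37, the spindle protein Spag5 by 0.26 and the chromosome-bound kinesin Kif4 by 0.21, each with both eM hearts above the eI range but not past the threshold. Kif4 lies on the X chromosome. Kif2c, a kinesin that shortens microtubules, differed by 0.16 and Hmmr, a microtubule-binding spindle protein, by 0.15, both with overlap. Nusap1, which bundles spindle microtubules, differed by 0.00 (95% confidence interval -0.24 to 0.23).

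Cytokinesis genes were the only multi-gene class, beside the kinetochore genes, in which every member had both eM hearts above all eI hearts. The margin of wild-type 3 over wild-type 2 was narrow for Ect2 (9.56 against 9.53) and Prc1 (10.66 against 10.63). Kif23, a kinesin of the midzone, read 9.30, 9.53, 9.36 and 9.33 in the eI hearts, 9.92 in wild-type 3 and 10.20 in mutant 3. Its difference of 0.68 ± 0.12 (SE) had the smallest p of the 35 genes (limma, adjusted p = 0.0261). Kif20a, which carries the passenger complex to the midzone, just missed the threshold at 0.45 (adjusted p = 0.0509). Anln, or anillin, of the contractile ring differed by 0.32 and Prc1, a bundler of midzone microtubules, by 0.18. Ect2, which activates RhoA at the cleavage site, differed by 0.45 ± 0.24 (SE), but its value in wild-type 1 was 8.61 where the other eI hearts read 9.53, 9.47 and 9.31. Top2a, the topoisomerase that untangles sister chromosomes, read 11.51, 11.68, 11.65 and 11.58 in the eI hearts, 11.86 in wild-type 3 and 12.05 in mutant 3 (0.35 ± 0.09 SE, limma, adjusted p = 0.0662).

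**Figure D2:**
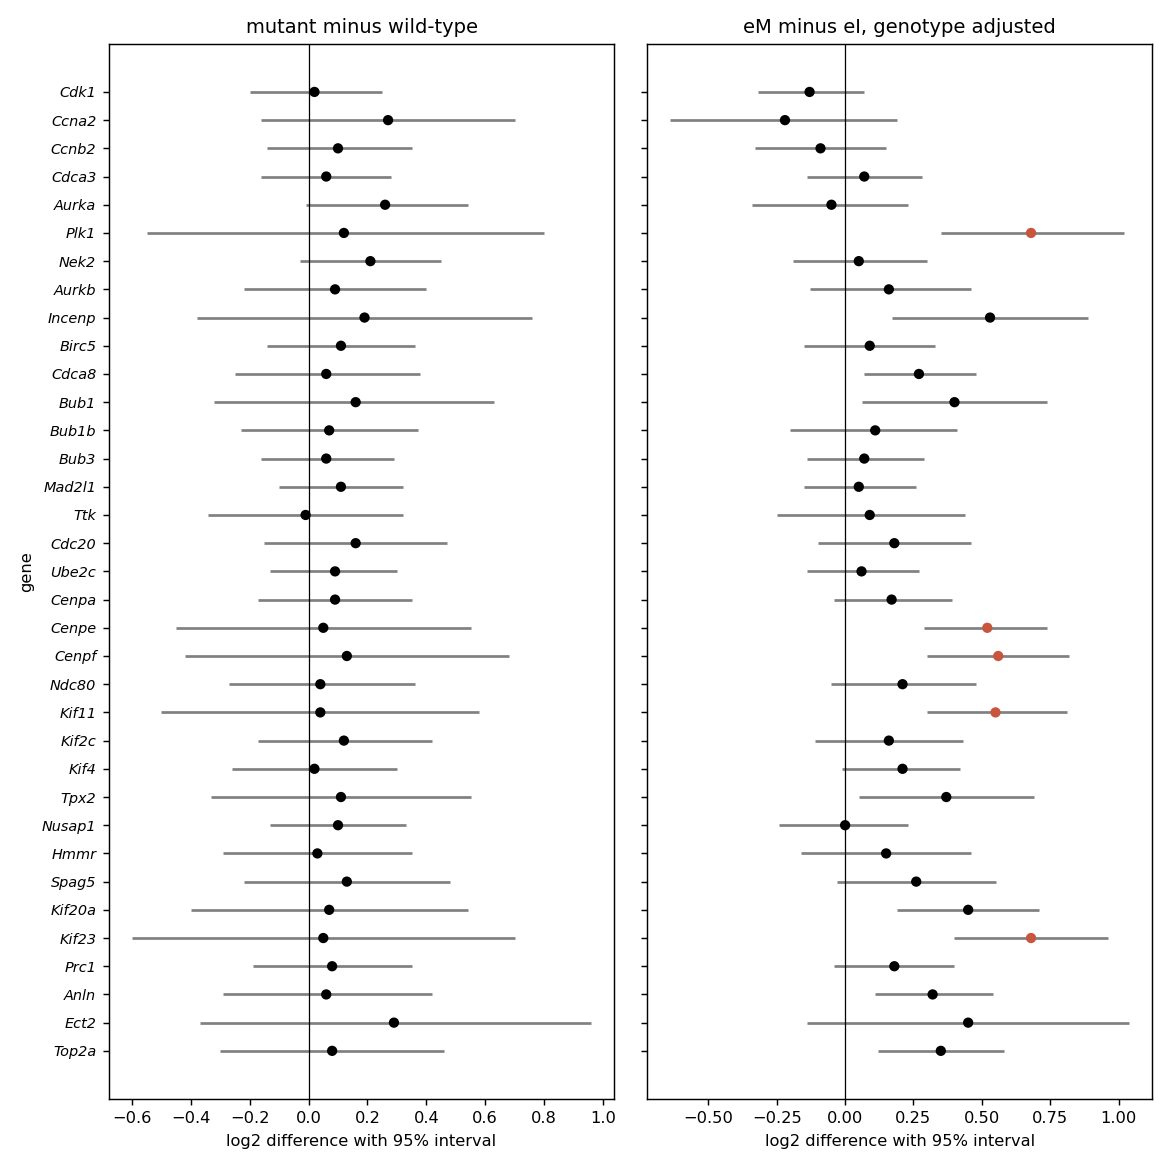
Differences of the 35 genes with 95% confidence intervals from limma, mutant minus wild-type on the left and eM minus eI adjusted for genotype on the right, on log2 axes; red points passed an adjusted p of 0.05. No point on the left is red, and 5 on the right are.

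The eM and eI hearts were also compared within each genotype, where the hearts are different ones. In wild-type hearts eM minus eI was positive for 23 genes with a median of 0.10, and in mutant hearts for 33 with a median of 0.32. All genes tested had medians of -0.02 and -0.04, with 47.1% and 44.6% positive. Across the 35 genes, which are not independent replicates, the differences of both genotypes correlated at r = 0.73. 23 genes were higher in eM in both, 2 were lower in both, and 10 were lower in wild-type 3 but higher in mutant 3. The genes of widest difference, Plk1 and Kif23, led in mutant hearts (0.96 and 0.85), and Kif23, Ect2 and Incenp in wild-type hearts (0.51, 0.50 and 0.44). A low wild-type 1 widened those of Ect2 and Incenp. Ect2 read 8.61, 9.53 and 9.56 in wild-type 1, 2 and 3, and Incenp 10.46, 10.95 and 11.14.

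**Figure D3:**
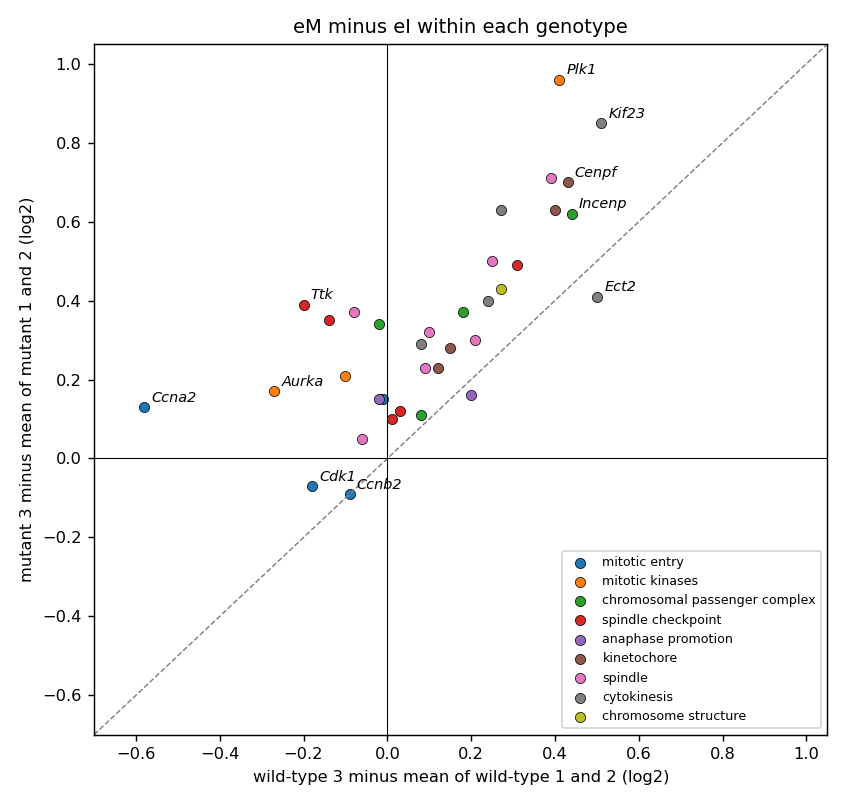
Each point is 1 gene, with wild-type 3 minus the mean of wild-type 1 and 2 on the horizontal axis and mutant 3 minus the mean of mutant 1 and 2 on the vertical axis, both log2; colours mark roles and the dashed line equality. At 33 of 35 genes the mutant value was the larger, and 10 genes, Ccna2 and Aurka among them, were below 0 in wild-type hearts alone.

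Other measures moved with the letters, and their part in the mitotic difference was not tested. Beta-actin control probes at the 3′ end exceeded those at the 5′ end, a sign of RNA quality, by 0.28 to 0.41 in eI hearts, 0.51 in wild-type 3 and 0.77 in mutant 3. An 18S rRNA probe set read 9.80 to 10.16 in eI hearts, 11.17 in wild-type 3 and 10.48 in mutant 3. For the marker lists below, genes that passed did so in limma, where 4.47% of all genes passed as higher in eM and 5.82% as lower. Macrophage markers had a mean of 6.58 to 7.0 in eI and of 5.67 and 5.59 in eM hearts. None was higher in eM and 7 of 9 passed as lower, among them the growth factor receptor Csf1r (8.77 to 9.04 against 6.98 and 7.53). Erythroid markers had a mean of 10.48 to 11.10 against 10.02 in both eM hearts. None of the 8 was higher in eM, and 4 passed as lower. Fibroblast and mesenchyme markers had a mean of 10.11 to 10.46 against 9.79 and 9.03. Of the 10, 1 was higher in eM and passed, and 2 passed as lower. Liver and endoderm markers had a mean of 6.77 to 8.5 against 5.70 and 5.44. None of the 6 was higher in eM, and 1 passed as lower, Afp (7.77 to 11.83 in eI hearts, 3.03 and 3.81 in eM hearts). Its difference of -5.83 was the lowest of all 13572 genes. Heart muscle markers had a mean of 13.23 to 13.28 against 13.47 and 13.46. Of the 12, 6 were higher in eM, with a median difference of 0, and 3 passed as higher and none as lower. Both eM hearts lay above all eI hearts at 4 of them and below at 4, where 20.8% and 23.8% of all genes did so. The widest difference was that of Ttn at 1.64. Endothelial markers had a mean of 9.72 to 9.80 against 9.69 and 9.66. Of the 10, 4 were higher in eM, and 1 passed as lower. Both eM hearts lay above all eI hearts at 3 of them and below at 3, again beside 20.8% and 23.8% of all genes. Epicardial markers had a mean of 8.38 to 8.84 against 8.80 and 8.78. Of the 8, 6 were higher in eM, and 2 passed as higher and 1 as lower. Neural markers had a mean of 6.13 to 6.45 against 6.53 and 6.76. Of the 5, 3 were higher in eM and 0 passed.

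Between genotypes no mitotic gene passed the test. In limma 0 of 13572 genes did, or 0%, and 127, or 0.936%, had an unadjusted p under 0.05, none of them among the 35. Even so, 34 of the 35 mitotic genes had a positive difference, by up to 0.29, where 51.1% of all genes did. The median was 0.09 in mutant minus wild-type hearts, and 0.00 over all genes. The exception was Ttk at -0.01. The mean level of the 35 genes had an SD of 0.10 among the 3 wild-type hearts, more than that median.

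The kinases Aurka and Nek2 were the genes without overlap between genotypes, 2 of 35 or 5.71% against 2.14% of all genes in that direction, and 0 of 35 lay wholly lower against 2.25%. Aurka read 10.06, 10.16 and 9.84 in wild-type and 10.22, 10.22 and 10.39 in mutant hearts (10.02 ± 0.16 and 10.28 ± 0.10, SD, n = 3 each). The difference was 0.26, with limma's 95% bounds at -0.01 and 0.54. A two-sided exact permutation test gave p = 0.1, the smallest that 3 against 3 allows. Nek2 read 9.57, 9.59 and 9.47 in wild-type and 9.73, 9.63 and 9.89 in mutant hearts, a difference of 0.21 ± 0.10 (SE). The eM hearts were the lowest and the highest of the 6 for both genes. The widest differences, in Ect2 (0.29 ± 0.28 SE) and Ccna2 (0.27 ± 0.18 SE), turned on single hearts, since Ect2 was low in wild-type 1 and Ccna2 in wild-type 3. Without wild-type 1 the Ect2 difference was -0.02, and without wild-type 3 that of Ccna2 was 0.08.

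The genes of smallest p in the other classes lay closer together. Cdc20 differed by 0.16 ± 0.13 (SE), with 11.25, 11.58 and 11.61 in wild-type and 11.66, 11.51 and 11.75 in mutant hearts. Birc5 and Mad2l1 differed by 0.11, Nusap1 by 0.10, Cenpa by 0.09 and Top2a by 0.08, all with overlap. Birc5 read 11.04, 11.28 and 11.23 in wild-type and 11.30, 11.20 and 11.36 in mutant hearts. Mad2l1 read 11.39, 11.53 and 11.47 against 11.57, 11.51 and 11.64. In both, mutant 2 was the lowest mutant heart and lay within the wild-type range. Nusap1 read 10.88, 11.00 and 10.88 against 11.10, 10.91 and 11.06, and Cenpa 11.01, 11.18 and 11.22 against 11.16, 11.14 and 11.38. For Ube2c, the gene with the brightest probe set, the values were 12.93, 12.86 and 12.87 against 12.94, 12.90 and 13.07. For Ndc80, with the dimmest, they were 8.18, 8.46 and 8.47 against 8.38, 8.26 and 8.59.

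**Figure D4:**
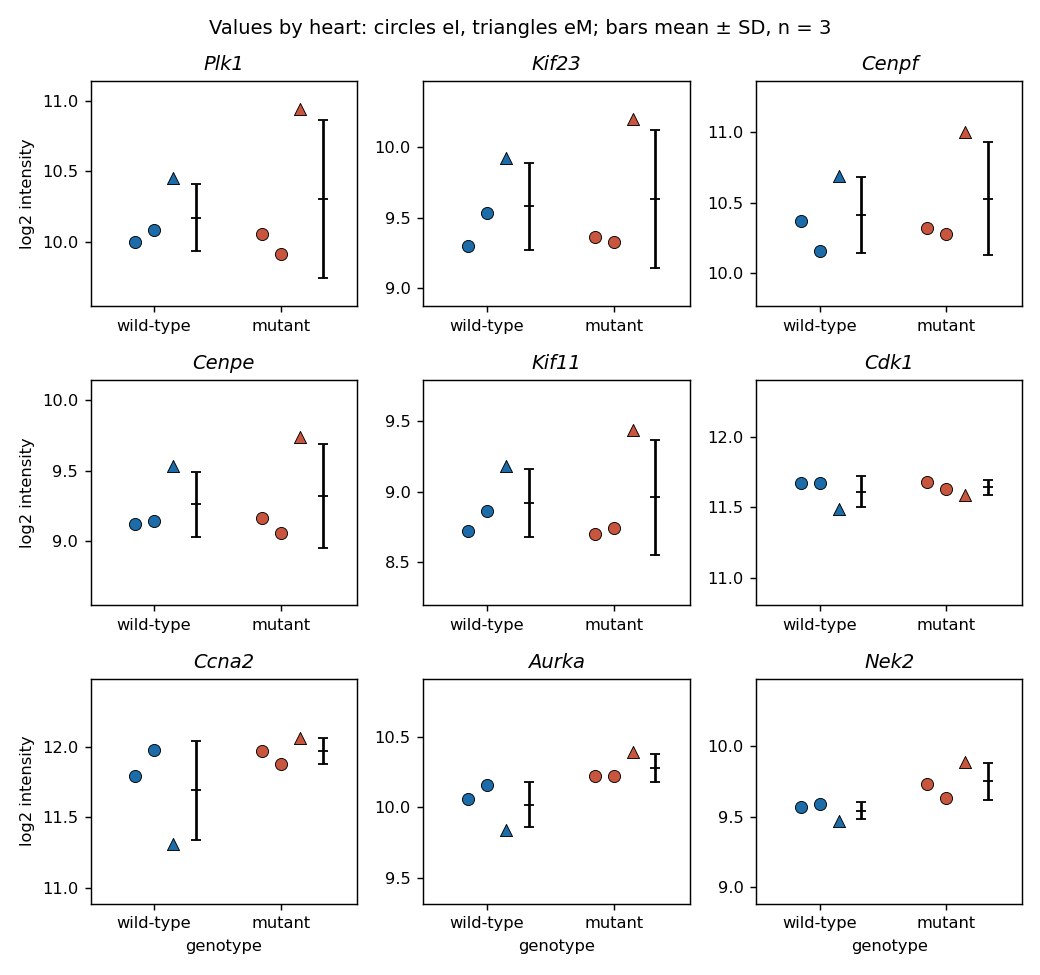
Log2 intensity of 9 mitotic genes in every heart, with wild-type in blue and mutant in red, circles for eI and triangles for eM, and bars for the mean ± SD of 3 hearts; every panel spans 1.6 log2. The top row and the first 2 panels of the middle row show the 5 genes that passed between eM and eI, with both triangles above all circles; Aurka and Nek2 did not overlap between genotypes.

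By its median the genotype difference was wider in the eM pair than in the eI hearts. Ect2 (0.32 in eI, 0.23 in eM) and Cdc20 (0.17 and 0.13) went the other way. Within the 4 eI hearts 22 of 35 genes, or 62.9%, were higher in mutants with a median of 0.03, where 52.9% of all genes were higher. Mutant 3 exceeded wild-type 3 at all 35, with a median of 0.21, where 48.6% of all genes did. The difference between the effects, eM minus eI, was positive at 33 of 35 genes with a median of 0.18, against 47.3% of all genes, but the interaction term passed for 0 genes in limma (smallest adjusted p = 0.31 over all genes; 966, or 7.12%, had an unadjusted p under 0.05). It was widest for Ccna2 at 0.71, Ttk at 0.60 and Plk1 at 0.54. The eM pair is 1 heart per genotype and mutant 3 is an Xist-low heart while wild-type 3 is not, so genotype, sex and single hearts cannot be told apart there. Without mutant 3 the median genotype difference was -0.02 with 16 of 35 positive, and without wild-type 1 it was 0.03 with 24 positive. Weighting the arrays by their spread gave -0.01 with 14 positive. With sex read from Xist as a covariate, an alternative added after the data were seen, it was -0.06 with 12 positive; mutant 2 is the lone Xist-high mutant, so that value sets mutant 2 alone against the 3 wild-type hearts.

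Other cell cycle genes from lists written with earlier results known were read in the same way. Of 66 tested other G2 and M genes, 56 were higher in eM with a median of 0.19, and 4 passed as higher and 2 as lower. The 4 are 6.06% of the list, near the 4.47% of all genes called higher, and 5.82% of all genes were called lower. The higher ones were Mki67, the proliferation antigen Ki-67 (11.00 to 11.40 in eI, 11.79 and 11.94 in eM, 0.62 ± 0.12 SE, limma, adjusted p = 0.0337), the spindle genes Psrc1 (0.61) and Ckap5 (0.49), and the ubiquitin ligase G2e3 (0.44). The lower ones were the kinetochore gene Zwint (-0.59 ± 0.08 SE, adjusted p = 0.0172) and Depdc1b (-0.39). Ckap5, G2e3 and Depdc1b were named after their values were seen. Between genotypes 56 of 66 were higher in mutants (median 0.09), and none passed in limma.

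Of 47 tested S phase genes of DNA replication, 37 were higher in eM with a median of 0.13, and 2 passed, the DNA polymerase subunits Pola1 (0.55 ± 0.09 SE, limma, adjusted p = 0.0248) and Pole (0.48 ± 0.10 SE, adjusted p = 0.04). These are 4.26% of the list, no more than the 4.47% of all genes. Between genotypes they were divided, with 24 of 47 positive and a median of 0.01. Regulators of G1 went both ways between the letters, with 8 of 18 higher and a median of -0.05. Among the 18, 3 passed. The cyclin Ccnd2 (1.00 ± 0.16 SE, limma, adjusted p = 0.0223) and the transcription factor Mycn (0.61 ± 0.10 SE) were higher in eM. They are 11.1% of the list, against 4.47% of all genes. The CDK inhibitor Cdkn2c was lower (-0.75 ± 0.11 SE, limma, adjusted p = 0.0182), where 5.82% of all genes were called lower. The widest difference of a G1 regulator by genotype, that of the CDK inhibitor Cdkn1b, was 0.34 and did not pass. No test of the difference between these lists was run.

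**Figure D5:**
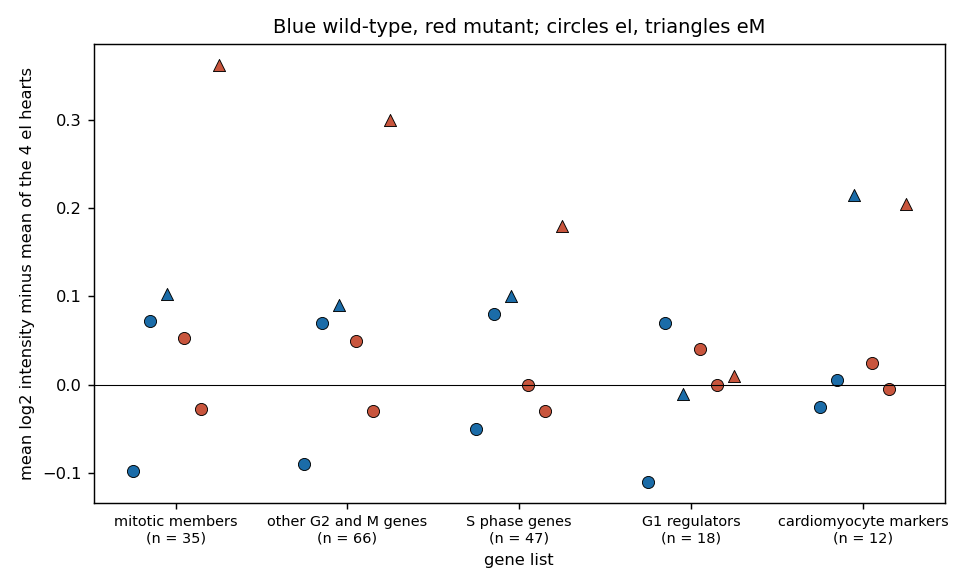
Mean log2 intensity of each gene list in every heart, minus the mean of the 4 eI hearts, for 5 lists, with wild-type in blue, mutant in red, circles for eI and triangles for eM. For the mitotic genes, the other G2 and M genes and the S phase genes mutant 3 is the highest heart, while for G1 regulators the eM hearts lie among the eI hearts.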

How the data were processed

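RMA is the tool named, without a version, in the submitters' processing notes, and its deposited output is on a log2 scale. Each labelling used 10 micrograms of total RNA, per the labels' protocols. The values ran from 2.42 to 14.79. Of 45101 probe sets, 64 controls were left out; 34945 named 1 gene, 932 several and 9160 none here. Symbols were set against RefSeq gene IDs (34741 matched, 0 changed). The 40% of probe sets with the lowest means were left out. Differences were tested in R 4.3.3 by limma 3.58.1, with moderated two-sided tests and Benjamini-Hochberg adjustment over 13572 genes at a threshold of 0.05, for genotype with no covariate, for the letters with genotype as covariate, and as their interaction. The fits were tested on simulated data. Figures were drawn with matplotlib 3.10.9. The members and lists were chosen with earlier results of these data known. All members were accounted for; values by heart were given for the genes of smallest p in each role class and fit, for genes that passed and for the brightest and dimmest, and of other lists up to 3 genes of smallest p per comparison. Nek2, Ttk and Hmmr, and members given by their difference alone, were named to complete the classes. Deviations of same-numbered hearts correlated at 0.18, 0.30 and 0.70 for numbers 1, 2 and 3. Wild-type 1 correlated more with mutant 2 (0.46) and wild-type 2 with mutant 1 (0.43), and number 3 is the eM heart in both genotypes. The values thus do not show that the numbers of the titles are pairs, and the main fits used no pairing. Exact permutations of the letters within genotype cannot give a p below 0.111. Alternatives were other filters, normalizations, probe sets, variance models, blocks and thresholds, and leaving out each heart.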

Additional observations from a re-analysis of the deposited data

How the results depend on the processing

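Between genotypes, 0 genes and 0 members passed under every alternative run, except that 2 genes, neither a member, passed without mutant 2. With the replicate block, given by the numbers in the titles, 0 genes passed and the members' median was 0.09; it changed no call. No replicate block could be fitted between eM and eI, which share no number. The members' genotype median ran from -0.02 to 0.16 when single hearts were left out and was -0.06 with sex read from Xist. Over all 35 members 34 genotype differences were positive, against 14 with array weights, 12 with sex, 16 without mutant 3 and 24 without wild-type 1, so many turned. Among the 11 members whose genotype difference is given under Results, it changed sign for Cenpa (0.00, array weights) and Top2a (-0.06, array weights, and -0.10, sex). It also changed sign for Nusap1 (-0.02, sex) and Ttk (0.27, mean of probe sets, and 0.54, probe set of highest SD). Leaving out single hearts turned it for 3 of those 11, with ranges of Ttk -0.14 to 0.07, Ect2 -0.02 to 0.46, Top2a -0.07 to 0.17. Between eM and eI, 1397 genes passed, against 878 with no filter, 2745 at an adjusted p under 0.10, 2 with sex as a covariate and 0 to 1937 without single hearts. Members called numbered 5, where 10.3% of all genes passed. With no filter there were 4 (4.83% of all genes), with the stricter filter 8 (15.7%) and with the probe set of highest SD 4 of 29 tested (15%). Trend and robust gave 10 (13%), a threshold of 0.10 gave 10 (20.2%) and the fit without a genotype term 8 (13.9%). Sex as a covariate gave 0 (0.0147%). Leaving out single eI hearts gave 0 to 10, where 0.0147% to 14.3% of all genes passed. In the fit with sex the sex term is set by mutant 2 alone, so its result equals that without mutant 2. The members' median ran from 0.10 to 0.32 without single hearts. The sign between eM and eI changed for Nusap1 (0.00 with centring, 0.02 with array weights, 0.06 with the mean of probe sets), for Cenpa (-0.12) and Kif2c (-0.04) with the mean of probe sets and for Cdca3 (-0.05) with the probe set of highest SD. Leaving out single hearts turned the sign between eM and eI of Aurka -0.27 to 0.17, Nusap1 -0.06 to 0.05, Ccna2 -0.58 to 0.13, Cdca3 -0.01 to 0.15, Nek2 -0.10 to 0.21, Aurkb -0.02 to 0.34, Bub1b -0.14 to 0.35, Ttk -0.20 to 0.39, Ube2c -0.02 to 0.15, Hmmr -0.08 to 0.37. In limma 0 genes passed the interaction with no filter, the stricter filter or quantile normalization.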

Other observations

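Probe sets of the same mitotic gene did not always give the same difference. For Cdc20, eM minus eI was 0.18 at the probe set used (mean 11.56) and -0.11 at another nearly as bright (11.41). For Ccna2 it was -0.22 (mean 11.83) and 0.04 (11.19), and the genotype difference 0.27 and 0.13. For Bub1 the genotype difference was 0.16 at the bright probe set and 0.89 at a dim one (mean 6.52), and for Ttk -0.01 and 0.54 (mean 6.37). For Tpx2 eM minus eI was 0.37 at the probe set used, 0.30 and 0.11 at others and -0.30 at a dim one (mean 6.22). Kif2c had 0.16 at the one used, 0.1 at another and -0.24 at a dim one (mean 6.51). Spag5 had 0.26 at the one used, 0.21 at another and -0.10 at a dim one (mean 6.56). The genes that passed between eM and eI had the same sign at their other probe sets above the dimness limit where they had any: Cenpf 0.56 and 0.27, Kif11 0.55, 0.37 and 0.08, and Kif23 0.68 and 0.62. Plk1 had 1 probe set, and the other probe set of Cenpe was below the limit.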
